A study of Drosophila melanogaster with 6 samples.

Results

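The genes described here encode the nuclear subunits of respiratory complexes II, III, IV and V in Drosophila melanogaster, together with their paralogs. They were chosen by symbol alone: names beginning with COX4, COX5, COX6, COX7, COX8, UQCR- or ATPsyn, and RFeSP, Cyt-c1, SdhA, SdhB, SdhC and SdhD. The rule found 46 of the 17453 genes listed, with 4 in complex II, 11 in complex III, 16 in complex IV and 15 in complex V. Of these, 31 are the main subunits and 15 are paralogs whose symbols end in L or in L and a digit. The libraries came from heads of adult flies of the genotype y1 w*; P{PTT-GA}Zn72D[CA07703], males and females pooled, in which a protein trap fuses GFP to the RNA-binding zinc finger protein Zn72D. RNA recovered with an antibody against GFP (RIP, 3 libraries) was compared with RNA of the lysate before precipitation (input, 3 libraries), so both groups carry the trap. The tagged protein is made from its own locus in whichever head cells express it, and no precipitate from untagged flies or with a control antibody was analysed here, so RNA that sticks to the beads cannot be told apart from RNA held by Zn72D.

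Complex II, succinate dehydrogenase, feeds electrons from the citric acid cycle into ubiquinone, and it is the one complex of the chain whose subunits are all encoded in the nucleus. Complex III passes the electrons from ubiquinol to cytochrome c, complex IV passes them on to oxygen, and both pump protons that drive the rotary ATP synthase, complex V. Complexes III, IV and V also hold subunits encoded by mitochondrial DNA, which are not analysed here. Many nuclear subunits of the Drosophila chain have a duplicate gene used mainly in the testis.

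The 6 libraries held 28070657 to 38331691 rounded counts. Ribosomal RNA genes took 79.9% ± 2.67 (SD, n = 3) of them in input and 6.55% ± 2.49 in RIP, which left 5864713 to 8182097 other counts in input and 25434738 to 36377599 in RIP. All values below are relative to the bulk of genes, because CPM, the counts divided by library depth, were scaled with TMM factors that centre most genes on no difference, and the median log2 fold change of RIP against input over all 11670 tested genes was 0.06. In input replicates 1 to 3, neuronal markers summed to 1342, 1344 and 1757 CPM, photoreceptor markers to 6359, 6590 and 6696, and glial markers to 88.7, 87.2 and 115. Head transcripts were thus present in every input library. In input replicates 1 and 2, however, the flight muscle markers given below summed to more than the glial ones. Replicate 3 stood apart in both groups. In replicates 1 to 3, the summed level of 8 testis markers, which a head should lack, was 96.9, 85.1 and 16.8 in input and 63.8, 55.1 and 13.8 in RIP (CPM), and that of 3 flight muscle markers was 268, 201 and 23.1 in input and 132, 124 and 11.4 in RIP. The genes osk and bam, listed as ovary markers, together had 0.911, 1.93 and 0.206 CPM in input and 4.78, 5.23 and 0.357 in RIP, so replicate 3 was lower there too. That sum is mostly osk, with 13, 40 and 4 counts in input beside 2, 2 and 0 for bam. The listed ovary markers nos and vas were not found by symbol. Nothing in the labels says that the numbered replicates are separate fly collections, so the spread behind each p-value is that between these libraries and may be partly technical. In bulk RNA such as this, fewer cells of a type and less RNA per cell cannot be told apart.

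The main subunits were less abundant in RIP than in input, in all 4 complexes. Of the 44 members with enough counts to be tested, 30 fell at an adjusted p under 0.05 and 0 rose (edgeR quasi-likelihood test, Benjamini-Hochberg over all genes), while 17.0% of all tested genes fell and 20.2% rose. At an unadjusted p under 0.05 the count of members that were higher was also 0, as it was with DESeq2 and with limma-voom. The 30 were 29 of the 31 main subunits and 1 of the 13 tested paralogs, COX7AL2. At least 2-fold lower were 28 main subunits and COX7AL2, against 10.2% of all tested genes. The median log2 fold change was -2.39 over the main subunits and -0.51 over the tested paralogs. For 30 of the 31 main subunits every RIP library was below every input library, as was the case for 24.3% of all tested genes, and ATPsynC was the exception. No member had all RIP libraries above all input libraries, against 26.5% of all genes. The calls above come from a fit on group alone, which leaves the shift of replicate 3 in the error. With the replicate number as a block, SdhA, ATPsynC and the paralogs COX4L, COX6AL and UQCR-14L were called lower too. COX6AL2 was then called higher (27.7% of all genes were lower and 32.7% higher with the block). The direction holds only relative to other genes: with library size alone as the scale, where the median of all genes was 1.90, 17 members were called lower and 9 higher, and on log2(TPM + 1), where that median was 2.54, 0 were called lower and 36 higher. Relative to those medians, 41 and 38 of the 44 members were still lower.

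**Figure D1:**
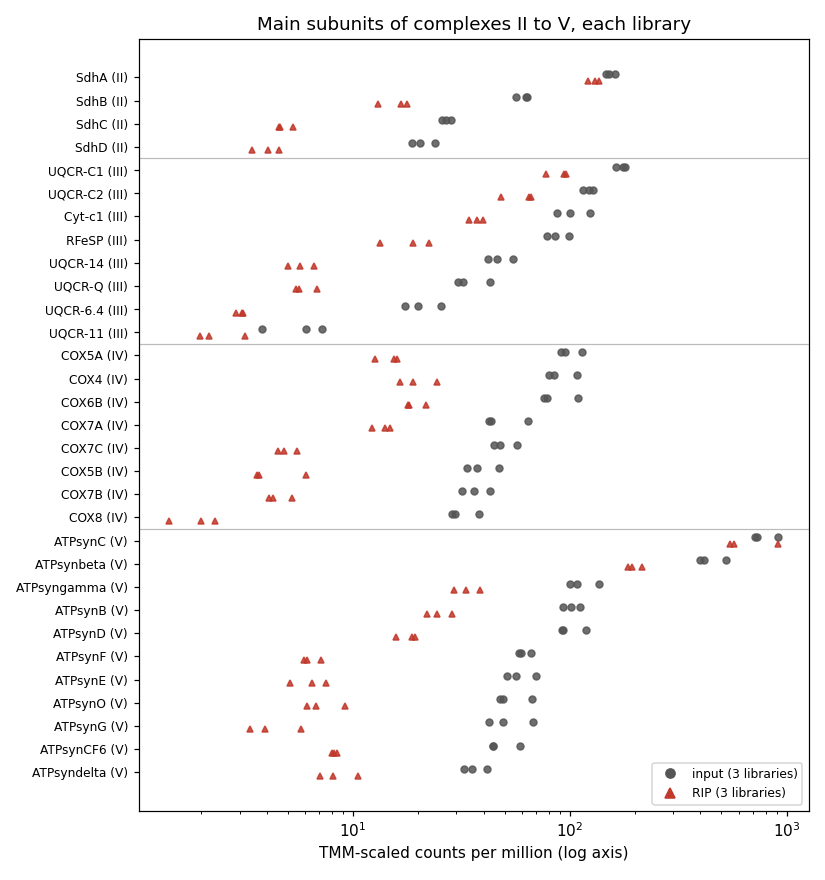
TMM-scaled CPM (log axis) of the 31 main subunits in each library, grouped by complex and ordered by input level; circles are the 3 input and triangles the 3 RIP libraries. RIP lies to the left of input, relative to the bulk of genes, with no overlap for every subunit except ATPsynC, while SdhA shows the next smallest gap.

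Summed over genes, the main subunits took 2966, 2967 and 3689.8 in input and 1273, 1327 and 1751 in RIP (CPM). The 8 main subunits of complex IV showed the widest gap between groups, at 444, 438 and 579 in input and 75.4, 79.1 and 95.8 in RIP, a ratio of group means of 5.84. Complex III was 2.69-fold lower in RIP, complex V 1.88-fold and complex II 1.70-fold. The last pair of sums is carried by ATPsynC and SdhA, the most counted member in each of these complexes, and the medians of the single genes were -1.87 for complex III, -2.89 for complex IV, -2.50 for complex V and -2.17 for complex II on the log2 scale. Differences between complexes were not tested.

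In complex II, 3 of the 4 subunits fell and the largest one did not pass the test. SdhA, the flavoprotein that oxidises succinate (FBgn0261439, 2R: 19391863 to 19395971 in dm6), had 146, 152 and 161 CPM in input and 121, 136 and 131 in RIP. Every RIP library was below every input library, but the gap was narrow and the difference did not pass (log2 fold change -0.24 ± 0.08 SE, adjusted p = 0.0686). It passed with the replicate number as a block (log2 fold change -0.24, adjusted p = 0.0125; 2.59e-06 to 0.276 over the 18 alternatives, the lowest being on log2(TPM + 1), where it was called higher, as it was with library size alone) and without RIP replicate 3 or both libraries numbered 3 (log2 fold change -0.37 without both, adjusted p = 0.00354). SdhA was also called lower with upper quartile scaling and with rRNA genes left out, both on all libraries. SdhB, the iron-sulfur subunit that hands electrons on to the membrane part (FBgn0014028, 2R: 6807626 to 6809172), had 56.5, 62.6 and 63.6 CPM in input and 13.1, 17.7 and 16.6 in RIP. It fell 3.85-fold (log2 fold change -1.95 ± 0.14 SE, adjusted p = 0.000375). The membrane anchors, which bind ubiquinone, fell further. SdhC (FBgn0037873, 3R: 11208887 to 11209849) had 25.7, 26.7 and 28.3 CPM in input and 4.55, 5.27 and 4.60 in RIP (log2 fold change -2.48 ± 0.11 SE, adjusted p = 0.000135). SdhD (FBgn0039112, 3R: 23759483 to 23760600) had 20.3, 18.8 and 23.8 CPM in input and 4.04, 3.41 and 4.58 in RIP (log2 fold change -2.39 ± 0.16 SE, adjusted p = 0.000365). Neither anchor's groups overlapped, and the folds were 5.59 and 5.23.

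All 8 main subunits of complex III fell, the large core proteins least and the small subunits UQCR-14 and UQCR-6.4 most. UQCR-C1, one of the core proteins on the matrix side (FBgn0038271, 3R: 14890231 to 14892387), had 163, 177 and 179.6 CPM in input and 77.4, 95.8 and 94.4 in RIP and fell 1.94-fold (log2 fold change -0.96 ± 0.11 SE, adjusted p = 0.00136). UQCR-C2, the other core protein (FBgn0250814, 3L: 16584124 to 16586111), had 115, 123 and 127 CPM in input and 48.4, 64.5 and 66.0 in RIP and fell 2.04-fold (log2 fold change -1.03 ± 0.14 SE, adjusted p = 0.00219). These were the smallest changes among called members. Cyt-c1, the haem protein that reduces cytochrome c (FBgn0035600, 3L: 5360211 to 5362798), had 99.95, 86.9 and 123 CPM in input and 34.2, 37.4 and 39.8 in RIP and fell 2.78-fold (log2 fold change -1.48 ± 0.15 SE, adjusted p = 0.000903). RFeSP, the Rieske iron-sulfur protein that takes electrons from ubiquinol (FBgn0021906, 2L: 1612429 to 1614160), had 78.9, 85.3 and 98.6 CPM in input and 13.4, 18.9 and 22.3 in RIP and fell 4.82-fold (log2 fold change -2.27 ± 0.21 SE, adjusted p = 0.000691). The redox subunits had larger fold changes than the core proteins. UQCR-14 (FBgn0030733, X: 16286288 to 16286988), a small accessory subunit, had 42.0, 46.3 and 54.6 CPM in input and 5.68, 5.04 and 6.58 in RIP and fell 8.26-fold (log2 fold change -3.05 ± 0.15 SE, adjusted p = 0.000178). UQCR-6.4 (FBgn0034245, 2R: 17572096 to 17572784), smaller still, had 19.9, 17.4 and 25.4 CPM in input and 3.10, 2.87 and 3.07 in RIP and fell 6.93-fold (log2 fold change -2.79 ± 0.17 SE, adjusted p = 0.000285). Their groups did not overlap. UQCR-11, the least counted main subunit, had 6.08, 3.82 and 7.21 CPM in input and 2.17, 1.97 and 3.17 in RIP (log2 fold change -1.23 ± 0.30 SE, adjusted p = 0.0215), and its call ended when input replicate 1, input replicate 3, RIP replicate 1 or RIP replicate 2 was left out (1.26e-06 to 0.661 over all alternatives).

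Complex IV held the lowest values. COX8, one of the smallest subunits at 68 codons (FBgn0263911, 3L: 21538859 to 21539447), had 28.7, 29.6 and 37.9 CPM in input and 1.42, 2.00 and 2.31 in RIP. It was 16.9-fold lower (log2 fold change -4.08 ± 0.23 SE, adjusted p = 0.000253), the lowest fold change of any member, with a clear gap between the groups. COX5A, the subunit with the highest level per length in the complex in input (FBgn0019624, 3R: 11819359 to 11820299), had 94.8, 91.0 and 113 CPM in input and 12.7, 15.5 and 16.0 in RIP and fell 6.77-fold (log2 fold change -2.76 ± 0.14 SE, adjusted p = 0.000178). COX4, which sits against the mitochondrially encoded core and takes part in regulation by ATP in mammals (FBgn0032833, 2L: 19958713 to 19960065), had 84.9, 80.6 and 108 CPM in input and 16.5, 19.0 and 24.3 in RIP and fell 4.58-fold (log2 fold change -2.20 ± 0.19 SE, adjusted p = 0.000595). COX6B, on the intermembrane face (FBgn0031066, X: 19740537 to 19744335), had 76.1, 78.8 and 109 CPM in input and 18.2, 17.9 and 21.6 in RIP and fell 4.58-fold (log2 fold change -2.20 ± 0.17 SE, adjusted p = 0.000476). None of these groups overlapped. The other 4 main subunits, COX5B, COX7A, COX7B and COX7C, lay between -1.86 (COX7A) and -3.34 (COX7C) on the log2 scale, with adjusted p from 0.000135 to 0.000938.

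In complex V, 10 of the 11 main subunits found by the rule fell, and the exception was the most counted member of all. The alpha subunit blw, which the rule leaves out, had more counts still and is described below. ATPsynC, the subunit of the rotating c ring (FBgn0039830, 3R: 31216145 to 31219630), had 711, 733 and 912 CPM in input and 569.6, 549 and 909 in RIP. RIP replicate 3 was near the level of input replicate 3, so the groups overlapped, and the difference did not pass (log2 fold change -0.22 ± 0.23 SE, adjusted p = 0.524). It passed, as a small difference, with the replicate block (log2 fold change -0.25, adjusted p = 0.0341; 5.55e-06 to 0.975 over the 18 alternatives, the lowest again on log2(TPM + 1), where it was called higher, as with library size alone) and without RIP replicate 3 or both libraries numbered 3 (-0.53 without both, adjusted p = 8.39e-05). ATPsynbeta, the catalytic subunit (FBgn0010217, 4: 1031484 to 1034917), had 416, 399 and 525 CPM in input and 193, 186 and 214 in RIP and fell 2.26-fold (log2 fold change -1.18 ± 0.14 SE, adjusted p = 0.00138). ATPsyngamma, the central shaft that turns within the catalytic head (FBgn0020235, 3R: 29747704 to 29749163), had 108, 100.1 and 136 CPM in input and 29.1, 33.2 and 38.4 in RIP and fell 3.41-fold (log2 fold change -1.77 ± 0.16 SE, adjusted p = 0.000679). Catalytic subunit and shaft had smaller fold changes than ATPsynG, ATPsynF and ATPsynE. ATPsynG (FBgn0010612, 2L: 10975522 to 10976399) had 49.0, 42.5 and 67.4 CPM in input and 3.35, 3.94 and 5.76 in RIP and fell 12.2-fold (log2 fold change -3.61 ± 0.28 SE, adjusted p = 0.000448). ATPsynF (FBgn0035032, 2R: 24599088 to 24599821) had 58.0, 59.3 and 66.2 CPM in input and 5.93, 7.12 and 6.14 in RIP and fell 9.55-fold (log2 fold change -3.26 ± 0.11 SE, adjusted p = 0.000135). All 3 belong to the membrane part where synthase dimers meet, and ATPsynE was at -3.21. The peripheral stalk, which keeps the head from turning, lay between these, with ATPsynB at -2.03, ATPsynD at -2.50, ATPsynCF6 at -2.58 and ATPsynO at -2.89, all of which fell.

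**Figure D2:**
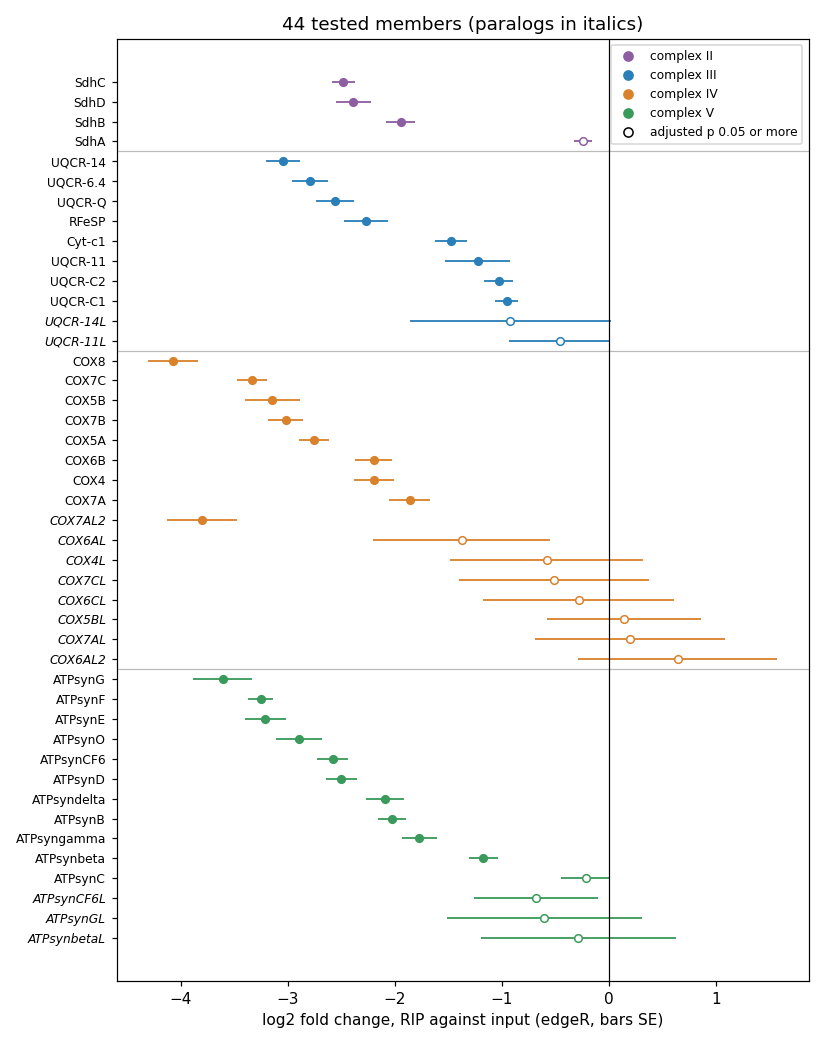
Log2 fold change of RIP against input for the 44 tested members, coloured by complex, with bars giving the SE and open symbols marking an adjusted p of 0.05 or more; paralogs are in italics and values are relative to the bulk of genes. The main subunits lie well below 0 apart from SdhA at -0.24 and ATPsynC at -0.22. The paralogs lie nearer 0 with wide bars, apart from COX7AL2 at -3.80, in this fit without the replicate block.

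Shorter transcripts of the main subunits had the lower fold changes. Across the 31 main subunits the Spearman correlation of log2 fold change with mean transcript length was 0.78, and across all 11670 tested genes it was 0.64. These are correlations across genes, which share the same 6 libraries and are not independent replicates. The coding length gave 0.66 and the length outside the coding part 0.33 over the main subunits. Without ATPsynC they were 0.76 for transcript length, 0.70 for coding length and 0.26 for the length outside the coding part. The transcripts of ATPsynC average 1398 bases and code for 138 codons, with 984 bases outside the coding part. SdhA, the other main subunit not called, has the longest transcripts, at a mean of 2708 bases. In each length class the median of the main subunits lay below that of all genes. Under 500 bases, the median log2 fold change was -3.18 over 6 main subunits and -1.62 over 401 genes. From 500 to 1000 bases it was -2.50 over 17 main subunits and -0.76 over 1975 genes, and from 1000 to 2000 bases -1.18 over 7 and -0.20 over 4044. All 23 main subunits under 1000 bases fell, where 53.6% of all genes under 500 bases and 39.5% of those from 500 to 1000 did.

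With the trend of fold change on length removed from the fit, 30 members were again called lower and 0 higher (11.9% and 7.52% of all genes). Of the 30 called without that correction, 29 remained, UQCR-11 no longer passed (log2 fold change 0.23, adjusted p = 0.661; 1.26e-06 to 0.661 over the alternatives) and SdhA was called. The folds of the short members became smaller: COX8 was then 5.99-fold lower, ATPsynG 4.94-fold, ATPsynF 4.30-fold and COX7AL2 3.80-fold. ATPsynbeta and UQCR-C1, which are longer, moved less, to 2.19-fold and 1.81-fold lower. SdhA, the longest main subunit, went the other way, from a log2 fold change of -0.24 to -0.54 (edgeR, adjusted p = 0.0113 with the trend removed). The median over the members was -1.33 against -0.02 over all genes.

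**Figure D3:**
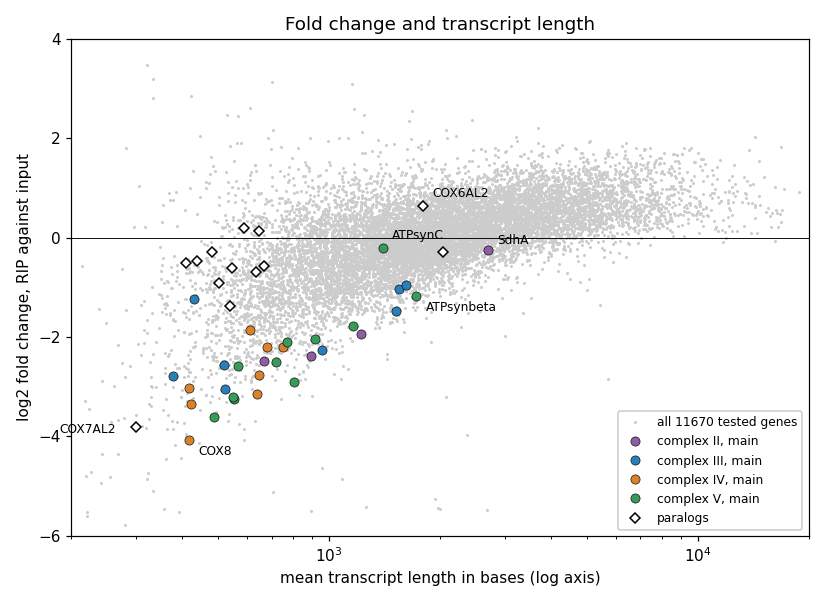
Log2 fold change of RIP against input by mean transcript length (log axis) for all tested genes (grey, those outside the axes not drawn), the main subunits (coloured by complex) and the tested paralogs (open diamonds). Main subunits lie in the lower part of the grey cloud at most lengths, relative to the bulk of genes, with COX8 and COX7AL2 lowest and ATPsynC and SdhA near 0.

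The subunits of a complex also changed their proportions to each other, a comparison made within each library and so free of the scaling between groups. It uses levels per length, which are counts divided by effective length, as a share of the sum over all genes other than rRNA. In complex II the highest level, that of SdhA, was 1.96 to 2.32 times the lowest, that of SdhD, in the 3 input libraries, and 7.79 to 11.1 times in the 3 RIP libraries. In complex V the level of ATPsynC was 9.39 to 10.2 times that of the lowest subunit in input, ATPsyndelta, and 41.8 to 49.7 times that of the lowest in RIP, ATPsynO. In complex IV the ratio between the extremes was 2.34 to 2.86 in input and 4.19 to 5.56 in RIP. Its highest subunit was COX5A in every input library and COX6B in every RIP library. In complex III the ratio of extremes overlapped between groups, at 5.06 to 9.12 and 4.71 to 8.02, but the highest subunit was UQCR-14 in every input library and UQCR-C1 in every RIP library. The groups did not overlap in the ratio for complexes II, IV and V, though an exact permutation test of 3 against 3 cannot give a two-sided p below 0.1. The highest and lowest levels within one complex were thus nearer to each other in input than in RIP, except in complex III. These ratios were not corrected for the trend of fold change on length. SdhA and ATPsynC have longer transcripts than SdhD, ATPsyndelta and ATPsynO. Other groups of genes were not compared in this way, so the wider spread cannot be called particular to these complexes.

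The paralogs were rare, and the tested ones other than COX7AL2 were higher in replicates 1 and 2 than in replicate 3. Of the 15, UQCR-6.4L (1 to 21 counts per library) and ATPsynepsilonL (0 to 5) were too low to test. In input the mean of replicates 1 and 2 was 1.87 to 16.8 times replicate 3 for the 12 other tested paralogs (median 7.91), and in RIP 1.57 to 13.4 times (median 4.54). For the main subunits the same ratio was 0.672 to 0.946 in input and 0.603 to 1.07 in RIP, and for COX7AL2 it was 0.788 and 0.588. The testis and flight muscle markers named above moved with the paralogs. The testis sum was 5.40 times higher in replicates 1 and 2 of input and 4.32 times in RIP, and the flight muscle sum 10.1 and 11.3 times, while neuronal markers stood at 0.764 and 0.730. The ovary sum of osk and bam was 6.90 and 14.0 times higher in replicates 1 and 2. All 8 testis markers and all 3 flight muscle markers had counts and were tested, while bam was too low to test. The part of all these markers in the paralogs' values was not tested.

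**Figure D4:**
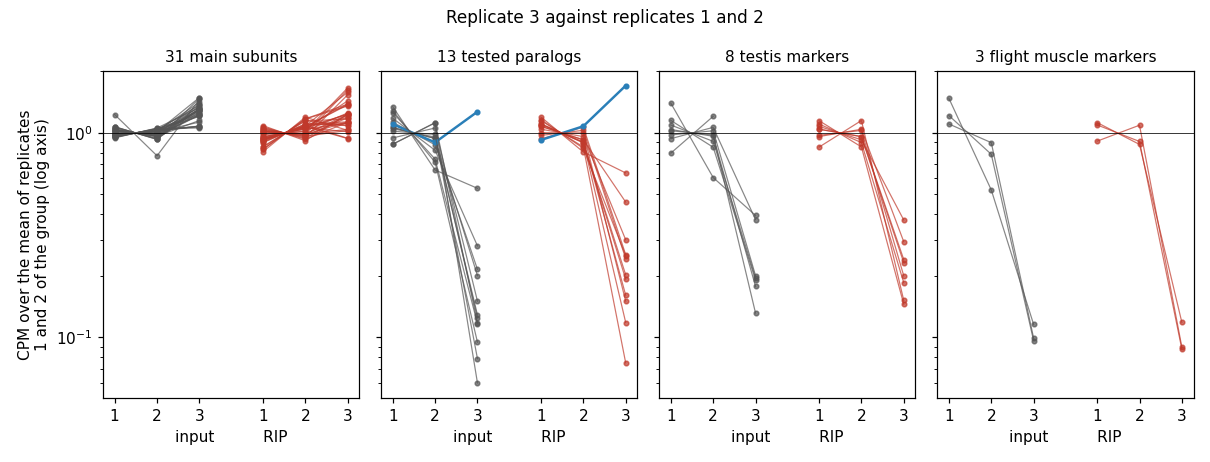
CPM of each gene in each library divided by the mean of replicates 1 and 2 of its group (log axis), for the main subunits, the tested paralogs, the testis markers and the flight muscle markers; values at 0 are omitted and COX7AL2 is drawn in blue. Replicate 3 drops in both groups for the paralogs other than COX7AL2 and for both marker lists, and lies near or somewhat above 1 for the main subunits.

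The paralog that broke the pattern was COX7AL2 (FBgn0085201, 2L: 2192525 to 2197912), which had 3.22, 2.62 and 3.71 CPM in input and 0.171, 0.200 and 0.315 in RIP. It was even across replicates, its groups did not overlap, and it fell 14.0-fold (log2 fold change -3.80 ± 0.32 SE, adjusted p = 0.000576). Its 13 to 15 counts per RIP library set the precision. COX6AL2 (FBgn0036830, 3L: 18908260 to 18914150) had 7.78, 8.70 and 1.24 CPM in input and 14.3, 11.8 and 1.53 in RIP. In RIP it was higher than in input of the same number in every replicate, yet replicate 3 of both groups lay far below, and the difference did not pass (log2 fold change 0.64 ± 0.93 SE, adjusted p = 0.647). It rose with the replicate block (log2 fold change 0.60, adjusted p = 0.000729; 0.000729 to 0.971 over the alternatives) and without both libraries numbered 3 (0.49, adjusted p = 0.00544). Its exons overlap those of Ir75d on the same strand and Prp6 on the other, and it was the only member whose reads were divided between genes, with a posterior SD of up to 12.2% of its count, so its value is uncertain. COX4L had 6.93, 6.30 and 0.824 CPM in input and 4.66, 3.99 and 0.694 in RIP. COX6AL had 2.55, 2.25 and 0.309 CPM in input and 0.842, 0.892 and 0.210 in RIP. Both were lower in RIP than in the same-numbered input, and neither passed without the block (log2 fold change -0.58 ± 0.90 SE, adjusted p = 0.671 for COX4L; log2 fold change -1.37 ± 0.83 SE, adjusted p = 0.258 for COX6AL). Both fell with it, at -0.56 (adjusted p = 0.00632; 0.000869 to 0.923 over the alternatives) and -1.35 (adjusted p = 0.000211; 0.000115 to 0.90).

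COX5BL had 2.43, 1.89 and 0.463 CPM in input and 2.17, 2.48 and 0.589 in RIP. COX7AL had 3.89, 2.30 and 0.360 CPM in input and 3.75, 3.03 and 0.652 in RIP. These paralogs overlapped between groups, and neither passed (log2 fold changes 0.14 ± 0.72 and 0.20 ± 0.89 SE). COX6CL had 1.52, 1.93 and 0.103 CPM in input and 1.32, 1.21 and 0.378 in RIP. COX7CL had 1.34, 1.29 and 0.103 CPM in input and 0.974, 0.705 and 0.210 in RIP. They too overlapped, at -0.28 ± 0.89 and -0.51 ± 0.89. UQCR-11L had 1.03, 0.506 and 0.412 CPM in input and 0.631, 0.426 and 0.336 in RIP. UQCR-14L had 1.09, 0.966 and 0.206 CPM in input and 0.645, 0.479 and 0.0421 in RIP. Of these, UQCR-14L fell with the block (log2 fold change -1.01, adjusted p = 0.0278; 0.0214 to 0.843 over the alternatives), against -0.92 ± 0.94 without it, and UQCR-11L was at -0.46 ± 0.47. Among the paralogs of complex V, ATPsynCF6L had 1.52, 1.06 and 0.360 CPM in input and 0.789, 0.679 and 0.336 in RIP. ATPsynGL had 1.15, 1.47 and 0.154 CPM in input and 0.842, 0.839 and 0.126 in RIP, and ATPsynbetaL had 1.40, 0.782 and 0.103 CPM in input and 0.921, 0.745 and 0.168 in RIP. All 3 overlapped between groups, with log2 fold changes of -0.68 ± 0.58, -0.60 ± 0.91 and -0.28 ± 0.91. With the block, 35 members were called lower and 1 higher (27.7% and 32.7% of all genes). Without both libraries numbered 3, 39 of 45 tested members were lower and 1 higher (28.6% and 24.7% of all genes). Of the lower ones 8 were paralogs: COX4L, COX6AL, COX6CL, COX7AL2, COX7CL, UQCR-14L, ATPsynCF6L and ATPsynGL. In a fit with both the block and the length correction, 30 were lower and 6 higher (26.4% and 23.4% of all genes), and the 6 were the paralogs UQCR-11L, COX5BL, COX6AL2, COX6CL, COX7AL and COX7CL. COX6CL and COX7CL were thus called in opposite directions by different edgeR fits. They were at -0.63 (adjusted p = 0.0435) and -0.81 (adjusted p = 0.0343) without both libraries numbered 3. With block and length correction they were at 1.10 (adjusted p = 0.00391) and 1.02 (adjusted p = 0.0138).

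Most paralogs kept a larger share of their main subunit's level in RIP than in input. For 11 pairs the paralog's level per length was divided by that of the main subunit within each library, so that the scaling between libraries did not enter. In 10 pairs the ratio was higher in RIP than in the same-numbered input in all 3 replicates. A pair was formed where a member carries the paralog's symbol without its ending, so COX6AL, COX6AL2, COX6CL and ATPsynepsilonL are not included. COX7A is the partner of both COX7AL and COX7AL2. Some ratios of replicate 3 rest on few counts of the paralog, such as 2 for COX7CL in input and 4 in input and 2 in RIP for UQCR-14L. UQCR-6.4L, too low to test but among the 10, had 2 counts in input and 1 in RIP there. Other pairs of genes were not compared. COX5BL, which lies 122 bases downstream of COX5B on the same strand of chromosome 2L, stood at 7.41, 5.05 and 0.971% in input and 59.5, 65.8 and 8.87% in RIP of it. COX7CL, 281 bases downstream of COX7C on 2R, stood at 2.95, 3.02 and 0.190% in input and 21.5, 16.8 and 4.06% in RIP. ATPsynCF6L stood at 3.02, 2.09 and 0.523% in input and 8.01, 6.95 and 3.32% in RIP of ATPsynCF6. These were the 3 pairs in which every RIP library was above every input library. Over replicates 1 and 2 alone, RIP was above input with no overlap in 10 pairs. COX4L stood at 9.40, 8.99 and 0.879% in input and 33.5, 24.9 and 3.37% in RIP of COX4, with replicate 3 far below the rest in both groups. COX7AL2 went the other way, at 25.5, 19.9 and 18.2% in input and 4.71, 5.86 and 8.76% in RIP of COX7A, with every RIP library below every input library. The main subunit is the denominator and itself fell in all 11 pairs, so the ratio does not by itself show that a paralog was held in RIP. The testis markers were higher in replicates 1 and 2 in both groups, and their part in these ratios was not tested. An exact permutation test of 3 against 3 cannot go below 0.1.

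**Figure D5:**
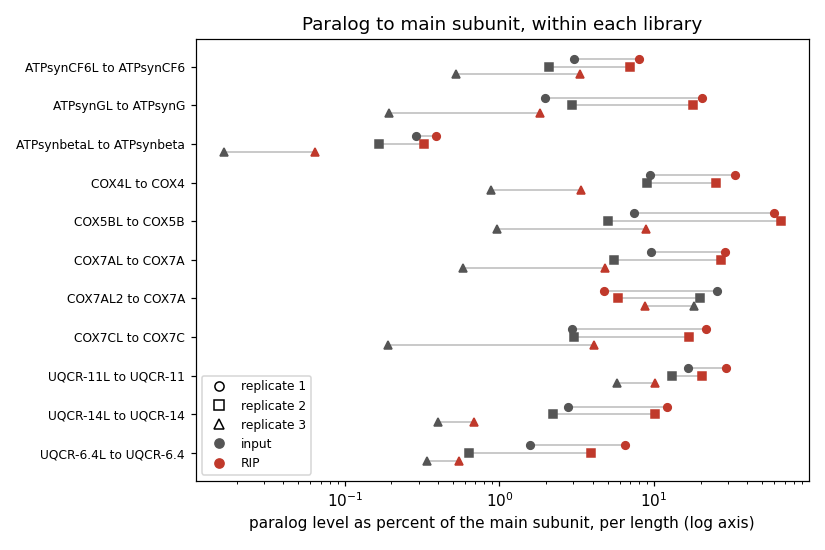
Level per length of each paralog as a percentage of its main subunit (log axis) in input (grey) and RIP (red), with circles, squares and triangles for replicates 1, 2 and 3 and lines joining libraries of the same number. The red symbols lie to the right of the grey ones in 10 of 11 pairs, and to the left for COX7AL2.

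Exons of 19 of the 46 members overlap those of another gene, 16 on the opposite strand and 4 on the same strand, among them UQCR-Q with CG46525, COX6B with CG18809 and ATPsynC with mir-4949. The strand setting of the counting is not given in the sources used here, so reads of these genes and their partners cannot be told apart with certainty. Reads were divided between genes for COX6AL2 alone. The other 45 members had none divided, also UQCR-Q, COX6B and ATPsynC with their same-strand overlaps, so this does not settle the strand setting. Among the 25 tested members with no such overlap, 16 fell and 0 rose (17.0% and 20.2% of all genes), with a median log2 fold change of -1.77. This set mixes main subunits with paralogs that were not called, among them COX4L, COX6AL and UQCR-14L.

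Other genes of the chain that the symbol rule leaves out were split as well, though their paralogs lay higher than those of the rule. Of 10 further subunits and cytochromes c, 5 fell and 0 rose, against 17.0% and 20.2% of all genes (edgeR; at an unadjusted p under 0.05, 0 were higher). The COX6A subunit levy had 64.5, 69.9 and 81.4 CPM in input and 4.28, 5.14 and 5.53 in RIP (log2 fold change -3.85 ± 0.15 SE, adjusted p = 0.000135). The COX6C subunit cype had 40.9, 46.8 and 59.2 CPM in input and 4.82, 5.03 and 5.82 in RIP (log2 fold change -3.23 ± 0.17 SE, adjusted p = 0.000220). Both lay as low as the small complex IV subunits of the rule, and ox, sun and the main cytochrome c gene Cyt-c-p fell as well. With the length trend removed, 4 of the 10 were lower (11.9% of all genes), and Cyt-c-p did not pass (log2 fold change -0.64 against -1.56, adjusted p = 0.130; 5.74e-13 to 0.228 over the alternatives). The exception among main subunits was blw, the alpha subunit of ATP synthase, at 0.01 ± 0.16, beside -1.18 ± 0.14 for its partner ATPsynbeta. SdhAL, SdhBL, knon and Cyt-c-d did not pass, at 1.08, 1.07, 1.02 and 0.44. Like the paralogs above, these 4 were higher in replicates 1 and 2 of both groups, and with the replicate block all 4 rose (32.7% of all genes did). Among the paralogs of the rule, by contrast, COX4L, COX6AL, UQCR-14L and COX7AL2 fell with the block and COX6AL2 rose. Of 11 tested assembly factors, 7 fell and 1, Coa7, rose (17.0% and 20.2% of all genes), with a median of -0.98. Once the length trend was removed, 3 were lower and 1 higher (11.9% and 7.52% of all genes). Cox17, which carries copper to complex IV, had 7.72, 7.64 and 8.60 CPM in input and 2.14, 2.32 and 2.31 in RIP (log2 fold change -1.82 ± 0.13 SE, adjusted p = 0.000400), and Coa8 had 6.62, 7.04 and 8.39 CPM in input and 2.35, 2.44 and 2.63 in RIP (log2 fold change -1.57 ± 0.15 SE, adjusted p = 0.000839).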

How the data were processed

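RNA-seq libraries of input and RIP, 3 each, were made, per the labels' protocols, once rRNA had been digested with RNase H on DNA oligonucleotides. Named in the submitters' processing notes are the build dm6, RSEM 1.2.30, STAR 2.5.4b, Trim Galore 0.4.5 and DESeq2 1.20.0. Neither the annotation release nor the strand setting is given in these sources. Input was 4% of the lysate by the extract protocol and 5% by the design text. Per the file headers, the authors deposited RSEM expected counts, which divide reads shared by several genes, and TPM, which is taken over all genes with rRNA included. Transcript length, effective length and the posterior SD of the count are other columns, per the file headers.

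An Ensembl annotation of dm6 gave symbols, gene structures and coordinates, with 17179 IDs found as they stood, 197 through transcripts and 77 not at all. All 46 members matched. Expected counts were rounded, and the 11670 genes that passed filterByExpr were given TMM factors and a quasi-likelihood test in edgeR, fitting group alone, with Benjamini-Hochberg adjustment over all of them at 0.05 (R 4.3.3, edgeR 4.0.16, limma 3.58.1, DESeq2 1.42.0). The SE was the fold change divided by the root of F. The test was first tested on simulated data. Alternatives were 18: other scalings, filters and tools, a pseudocount of 1 on TPM, a loess length trend (span 0.3) as an offset, a replicate block, and libraries left out. The replicate numbers come from the labels. Input and RIP libraries of number 1, 2 and 3 deviated together from their group means, with correlations across genes of 0.665, 0.604 and 0.848. They were treated as pairs in the fits with the replicate block and where same-numbered libraries were compared, but not in the fit on group alone. Between number 3 and the others the correlation was -0.789 to -0.659, while 1 and 2 could not be separated by this check. Deviations from the mean of 3 libraries cancel, so part of these negative values is built in.

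The members, lists and tests were chosen with earlier results of these data known. Values in each library are given for all of complex II, RFeSP and Cyt-c1, every tested paralog and, in complexes III to V, the 3 members with the highest input CPM and the 2 with the lowest and 2 with the highest fold change; from each other list of the pathway the 2 genes with the smallest p are named. UQCR-11 was singled out after its values were seen. No sequence is shown.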

Additional observations from a re-analysis of the deposited data

How the results depend on the processing

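Values for single genes here are log2 fold changes less the median of all genes in the same fit. Of 32 members under 18 alternatives, 490 values kept direction and side of the threshold, 30 became called, 27 lost a call and 29 changed direction. The 27 lost calls were 18 on log2(TPM + 1) and 9 with library size alone. None of the 29 changes of direction was of a gene called in the comparison as reported, with direction taken after the median was subtracted. UQCR-11, called lower as reported, was not among these 32 members. Its log2 fold change as fitted turned to 0.23 with the length trend removed and 0.24 with the block as well. With library size alone, 17 members (16 main subunits) were called lower and 9 higher. On log2(TPM + 1), 0 members, main subunits or paralogs were called lower and 36 members higher, the median of the members less that of all genes was -1.24, and SdhA was at 0.55, COX6CL at 0.13 and ATPsynC at 0.65. With the replicate block, 4 paralogs were lower and 1 member higher, and the block changed no other member's call than those given above. Without both libraries numbered 3, 8 paralogs were lower and 1 member higher. With the length trend removed, the median was -1.32, UQCR-11L was at 0.99, UQCR-14L at 0.36, COX4L at 0.37, COX6CL at 1.06, COX7CL at 1.02, ATPsynC at 0.0049, ATPsynCF6L at 0.32 and ATPsynGL at 0.58. With block and length trend together, 6 members were higher and the median was -1.30, with UQCR-11L at 1.00, UQCR-14L at 0.27, COX4L at 0.38, COX6CL at 1.12, COX7CL at 1.04, ATPsynCF6L at 0.34 and ATPsynGL at 0.57. With limma-voom, COX6CL was at 0.33 and ATPsynbetaL at 0.12. The cause of these shifts was not tested. Leaving out 1 library at a time gave 29 to 32 lower members, medians of -2.10 to -1.89, COX5BL from -0.34 to 0.48, COX6CL from -0.87 to 0.20, COX7AL from -0.35 to 0.80 and ATPsynbetaL from -0.85 to 0.37. Counts of 2 to 9 for most paralogs in input replicate 3 limit any statement on them.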

Other observations

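Mitochondrial genes outside the respiratory chain also fell in part, with medians nearer to 0 than that of the main subunits. Of 16 enzymes of the citric acid cycle and pyruvate dehydrogenase, 7 fell and 0 rose, against 17.0% and 20.2% of all genes (edgeR; 0 were higher at an unadjusted p under 0.05), with a median log2 fold change of -0.34 against 0.06 over all genes. With the replicate block 11 fell and 1, Pdk, rose (27.7% and 32.7% of all genes). Mdh2, mitochondrial malate dehydrogenase, had 151, 144 and 189 CPM in input and 54.2, 62.9 and 70.4 in RIP (log2 fold change -1.37 ± 0.15 SE, adjusted p = 0.00120). Pdha, an alpha subunit of pyruvate dehydrogenase, had 94.2, 89.4 and 125 CPM in input and 48.5, 48.6 and 53.5 in RIP (log2 fold change -1.04 ± 0.14 SE, adjusted p = 0.00259). Their groups did not overlap. Of 13 carriers and outer membrane or import proteins, 8 fell and 0 rose (17.0% and 20.2% of all genes), with a median of -1.10. With the replicate block 10 fell, sesB and Mpcp2 being the further ones. Mpcp1, a phosphate carrier, had 96.3, 99.4 and 96.3 CPM in input and 33.5, 44.5 and 37.6 in RIP (log2 fold change -1.34 ± 0.12 SE, adjusted p = 0.000642), and Tom20, an import receptor, had 18.2, 16.9 and 20.3 CPM in input and 9.37, 8.50 and 7.99 in RIP (log2 fold change -1.10 ± 0.12 SE, adjusted p = 0.00118). With the length trend removed, 2 of these 13 were called lower, near the 11.9% of all genes, and Tom20 was not (adjusted p = 0.0981; 2.81e-15 to 0.0981 over the alternatives).

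Of 15 genes of mitochondrial gene expression and its regulators, 4 fell and 4 rose, near the 17.0% and 20.2% of all genes, and the 4 that rose were ewg, Lon, srl and ERR. TFAM, which packs mitochondrial DNA, had 5.23, 5.11 and 5.82 CPM in input and 1.76, 2.14 and 1.91 in RIP (log2 fold change -1.47 ± 0.16 SE, adjusted p = 0.00111). Lon, a matrix protease, had 46.2, 40.4 and 47.3 CPM in input and 72.1, 65.2 and 62.4 in RIP (log2 fold change 0.58 ± 0.10 SE, adjusted p = 0.00584). With the length trend removed, 2 of the 15 were called lower and 0 higher, against 11.9% and 7.52% of all genes. With the replicate block 8 were lower and 5 higher (27.7% and 32.7% of all genes). Ccdc56 and mtTFB1, counted among the assembly factors and here, share a locus and had the same counts. These directions, too, are relative to the bulk of genes: with library size alone as the scale, 0 genes of these lists were called lower and 16 of the enzymes, 10 of the carriers and 13 of the regulators were called higher. Differences between these lists and the respiratory subunits were not tested.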
